A study of Mus musculus with 18 samples.

Results

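The 4 signalling FGF receptors, the receptor-like gene Fgfrl1 and the adaptors Frs2 and Frs3 were followed in O9-1 cells, a multipotent mouse cranial neural crest line, during osteoblast differentiation. These 7 genes were taken by name from the 55335 gene identifiers counted in each library. RNA-seq covered 18 libraries, 3 in each of 6 groups: Ctrl+vehicle (scramble siRNA, no FGF2), Ctrl+FGF2 (scramble siRNA with FGF2) and Y/T dKD+FGF2 (siRNA against Yap and Taz, with FGF2), each at d2.5 and d5 of differentiation. All groups were O9-1 cells labelled wild type and all were grown in osteoblast differentiation medium. Y/T dKD+FGF2 is an siRNA knockdown in 1 cell line, and no knockdown group without FGF2 was among the samples, so an effect of the knockdown on cells not given FGF2 was not measured. The labels give the day as the batch, so day and batch cannot be told apart. Levels at d2.5 and d5 are therefore set side by side without a test, and only effects measured within a day were compared between days. The labels do not say whether the 3 replicates came from separate cultures, and p-values then measure the spread between these libraries, which may be technical.

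FGF receptors are receptor tyrosine kinases that dimerise when an FGF binds together with heparan sulphate. The kinase then phosphorylates the membrane-anchored adaptor Frs2, which recruits Grb2 and Shp2 (Ptpn11) and passes the signal to the Ras-ERK and PI3K-AKT routes. Fgfrl1 binds FGFs but lacks the tyrosine kinase domain. In the developing skull vault, Fgfr1 and Fgfr2 are the receptors most studied in osteoprogenitors and osteoblasts, activating changes of FGFR2 cause syndromes with early fusion of the sutures, and Fgfr3 is best known as a brake on cartilage growth.

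By the GENCODE M21 annotation of GRCm38, all 7 are protein-coding genes. Fgfr1 (ENSMUSG00000031565.18) lies at chr8:25513654-25575718 on the + strand and Fgfr2 (ENSMUSG00000030849.18) at chr7:130162451-133123350 on the − strand. The annotated length of Fgfr2 rests on 1 of its 27 transcript models, and the others end at position 130266263 or before. Fgfr3 (ENSMUSG00000054252.18) lies at chr5:33721674-33737068, Fgfrl1 (ENSMUSG00000008090.14) at chr5:108692382-108706924, Fgfr4 (ENSMUSG00000005320.9) at chr13:55152640-55168759 and Frs3 (ENSMUSG00000023266.11) at chr17:47689030-47704286, all on the + strand. Frs2 (ENSMUSG00000020170.4) lies at chr10:117069427-117148534 on the − strand. Counts are summed over all exons of a gene, so the epithelial (IIIb) and mesenchymal (IIIc) splice forms of the receptors were not separated. Of the splicing factors that favour the IIIb exons, Esrp1 had 0 counts in all 18 libraries and the group means of Esrp2 were 0.178 CPM (read counts scaled to a common library size) or lower.

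Fgfr2 and Fgfr3, the 2 members whose levels differed most between groups, have unlike sequence before their listed RefSeq starts, which is why both are shown. RefSeq starts on GRCm38.p6 were listed for 6 of the 7 genes, not for Fgfr1. The lines give the bases upstream of the start of Fgfr2 and of the first of 2 listed starts of Fgfr3, up to the first base that the annotation places in an exon of the gene, with CpG dinucleotides in capitals.
Fgfr2, chr7:130266809-130267058, − strand: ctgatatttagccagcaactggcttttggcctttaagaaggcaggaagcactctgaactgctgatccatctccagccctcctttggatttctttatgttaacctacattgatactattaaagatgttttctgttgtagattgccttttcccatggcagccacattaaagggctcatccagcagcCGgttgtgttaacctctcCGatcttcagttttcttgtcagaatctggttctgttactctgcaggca
Fgfr3, chr5:33721474-33721673, + strand: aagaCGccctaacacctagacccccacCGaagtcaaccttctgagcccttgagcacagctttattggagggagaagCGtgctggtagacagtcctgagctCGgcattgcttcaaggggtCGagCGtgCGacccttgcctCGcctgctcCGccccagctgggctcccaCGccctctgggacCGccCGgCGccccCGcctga
In the full window of 250 bases, Fgfr2 had 2 CpG dinucleotides and 44% G and C, and Fgfr3 had 19 and 66.8%. The median of all 32851 listed promoters was 6 CpG dinucleotides and 52.4% G and C, with quartiles of 2 to 16 and of 45.2% to 61.2%. The window of Fgfr2 thus sat at or below the lower quartile and that of Fgfr3 above the upper one. The Fgfr2 window lies before a RefSeq start at 130266808, whereas all but 1 of its 27 transcript models reach no higher than 130266263. It is therefore not next to the start of those models, and the sequence directly before their starts was not examined. The windows of Fgfr3 (first start), Fgfr4, Frs2 and Frs3 run into an annotated exon of their gene, after 200, 72, 190 and 241 bases. Letters of 4 motifs were searched on both strands: GGAATG (TEAD, the DNA-binding partners of Yap and Taz), TGANTCA (AP-1), CCGGAA (ETS) and TGTGGT (RUNX). None of the 4 was in the windows of Fgfr2, Fgfr3 (either start) or Frs3. CCGGAA was found in Fgfr4, Fgfrl1 and, at 2 places, Frs2, which also held TGTGGT, and no match overlapped another. The match in Fgfr4 (-178 to -173 from the RefSeq start) began at the first annotated exon base. In Frs2 the CCGGAA match at -62 to -57 reached into an annotated exon. Among all promoters, 12.6% held GGAATG, 6.75% TGANTCA, 12.03% CCGGAA and 14.05% TGTGGT.

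The 18 libraries held 10377151 to 14698525 gene counts each, with a median of 12330911. No library stood apart from its group, and the siRNA targets were lower in Y/T dKD+FGF2 than in Ctrl+FGF2: Yap1 with log2 fold changes of -0.96 at d2.5 and -1.12 at d5, and Wwtr1, which encodes Taz, with -0.72 and -0.80 (largest adjusted p, 4.92e-11). Wwtr1 itself rose with FGF2 at d2.5, from 140 ± 2 to 222 ± 3 CPM, and Y/T dKD+FGF2 at 136 ± 6 CPM was not called different from Ctrl+vehicle there (adjusted p = 0.122). Of the neural crest and mesenchyme markers, Sox10, a defining gene of early neural crest, had 0 counts in all libraries, and the summed level of the 10 markers was 5377 to 7681 CPM. Of 14 markers of blood, endothelial, epithelial, neural, glial and muscle cells, Cdh5 and Myod1 were at 0 in all libraries, and their summed level was 4.42 to 13.7 CPM.

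Fgfr2 and Fgfr3 fell steeply with FGF2 at d2.5, while Fgfr1 rose. Against Ctrl+vehicle, Fgfr2 was 10.1-fold lower and Fgfr3 30.5-fold lower in Ctrl+FGF2, Fgfrl1, Frs2 and Frs3 were 1.80- to 2.03-fold lower, and Fgfr1 was 1.62-fold higher. All 6 members with enough counts to be tested passed the test, 1 higher and 5 lower, where 67.6% of all 13677 genes tested passed (33.5% higher and 34.1% lower). Fgfr4 was not tested. The median log2 fold change of the 6 was -0.93, beside 0.00 over all genes tested.

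**Figure D1:**
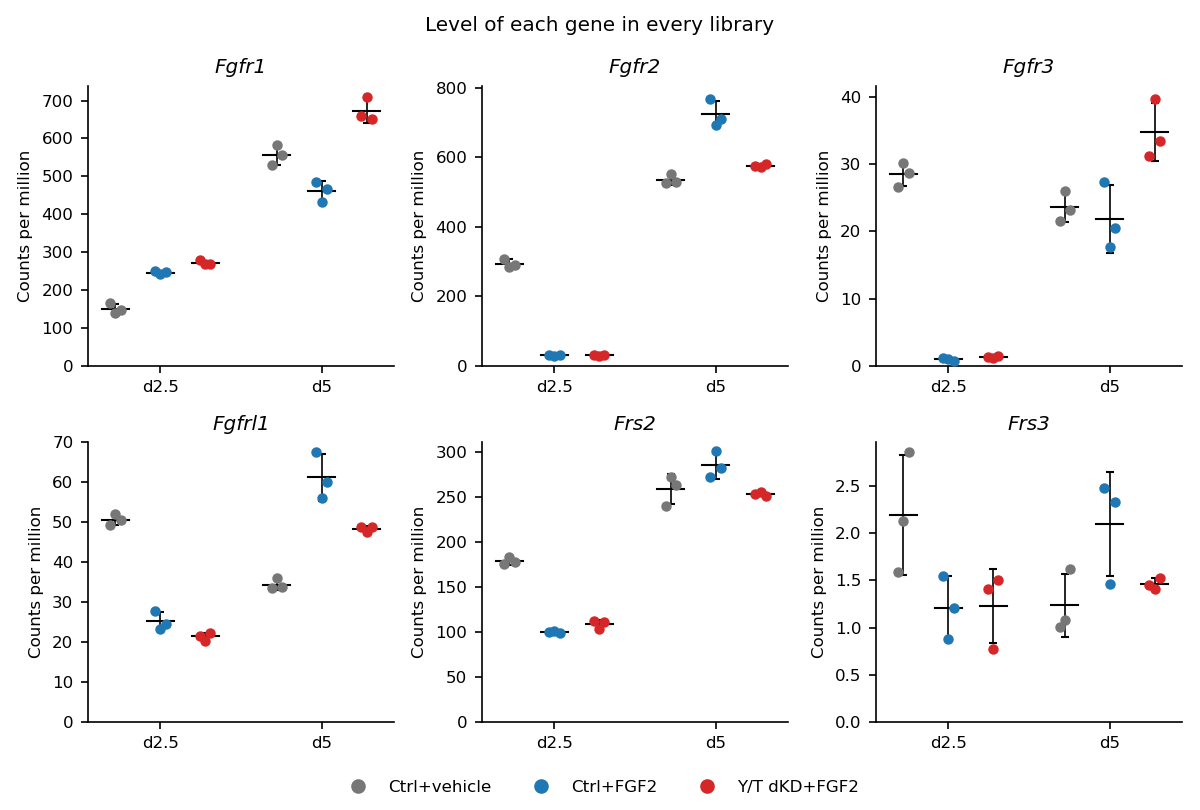
Level of each gene in CPM (vertical axes, from 0) in the 18 libraries, by day (horizontal axis) and group (colour); points are libraries, lines and bars are mean ± SD of 3. At d2.5 Fgfr2 is at 27.6 to 32.1 CPM and Fgfr3 at 0.668 to 1.42 CPM in the 6 FGF2-treated libraries, and at d5 Fgfr2 is at 525 CPM or higher in all 9. Fgfr4 had 3 counts in all libraries together and is not drawn.

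Fgfr2 read 308, 284 and 289 CPM in the d2.5 Ctrl+vehicle libraries and 31.1, 27.6 and 29.4 CPM in Ctrl+FGF2. The lowest vehicle library was far above the highest FGF2 library. The log2 fold change was -3.33 ± 0.05 (SE, n = 3 against 3, edgeR's quasi-likelihood test, adjusted p = 2.92e-31). Fgfr3 read 26.6, 30.1 and 28.7 CPM in Ctrl+vehicle and 1.20, 0.946 and 0.668 CPM in Ctrl+FGF2, which is 371 to 467 counts against 10 to 17. The groups did not overlap, and the log2 fold change was -4.93 ± 0.14 (adjusted p = 1.86e-23). Among 11869 genes whose mean log2 CPM was 1 or more, 27 fell as far as Fgfr3 or further and 76 as far as Fgfr2 or further, each gene itself included. Bulk counts cannot tell fewer cells of a type from less RNA per cell.

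Fgfr1, a receptor widely expressed in mesenchyme, read 165, 140 and 148 CPM in Ctrl+vehicle and 249, 241 and 247 CPM in Ctrl+FGF2. Every FGF2 library was above every vehicle library, with a log2 fold change of 0.69 ± 0.04 (adjusted p = 1.37e-15). Fgfrl1 went from 49.2, 52.0 and 50.5 CPM to 27.8, 23.4 and 24.4 CPM, and its log2 fold change was -1.02 ± 0.06 (adjusted p = 2.81e-15). Frs2, the main docking protein of the receptors, went from 175, 183 and 177 CPM to 100.3, 101 and 98.9 CPM, and its log2 fold change was -0.85 ± 0.04 (adjusted p = 1.09e-18). Neither gene's groups overlapped. Frs3, its relative, best known from neural tissue, was low throughout, at 1.59, 2.13 and 2.86 CPM in Ctrl+vehicle and 1.55, 0.873 and 1.20 CPM in Ctrl+FGF2. It passed the test with a log2 fold change of -0.85 ± 0.27 (adjusted p = 0.00757) but rested on 12 to 37 counts a library. Its call was lost without Ctrl+vehicle replicate 3 (-0.63, adjusted p = 0.0734), without Ctrl+FGF2 replicate 2 (-0.67, adjusted p = 0.0525) and with DESeq2 (-0.86, adjusted p = 0.0540).

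Fgfr4 had 1 count in each of 3 libraries and 0 in the other 15. A count of 3 would equal 0.194 to 0.306 CPM in these libraries, so Fgfr4 was not detectable above that level at this depth, which covers counting error only.

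Most osteoblast markers fell in the same libraries. Of 8 listed, 7 were tested and 6 were lower with FGF2 at d2.5, where 34.1% of all genes were. Alpl (alkaline phosphatase) went from 115 ± 12 to 0.140 ± 0.006 CPM, Sp7 (the transcription factor osterix) from 182 ± 41 to 26.1 ± 1.1 CPM and Col1a1 (type I collagen) from 12636 ± 135 to 2203 ± 59 CPM (SD, n = 3). Spp1 (osteopontin) rose, from 4001 ± 91 to 6915 ± 52 CPM. The summed level of the 8 markers was 34721 to 35171 CPM in Ctrl+vehicle and 14954 to 15253 CPM in Ctrl+FGF2, and none was at 0. Of the neural crest and mesenchyme markers 8 were tested, and 2 were higher (Vim and Cd44) and 2 lower (Sox9 and Prrx1). Those shares over all genes were 33.5% and 34.1%, and the median log2 fold change of the 8 was -0.07. The 10 listed summed to 5377 to 5760 and 7315 to 7395 CPM, with moves in both directions inside the sum. The 14 markers of other cell types summed to 10.7 to 13.7 and 4.88 to 7.28 CPM. Of those 14, 6 were tested, and 2 were higher and 3 lower (33.5% and 34.1% of all genes), with moves in both directions inside the sum. Named after their values were seen, the epithelial markers Krt14 went from 4.395 ± 0.569 to 0.144 ± 0.146 CPM (190 to 6 counts over 3 libraries each) and Epcam from 0.255 ± 0.022 to 1.13 ± 0.35 CPM (11 to 48 counts). The part of any of these in the changes of the receptors was not tested.

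At d5 most of these differences had the other sign. With FGF2, Fgfr2 was 1.37-fold and Fgfrl1 1.79-fold higher than in Ctrl+vehicle, Fgfr1 was 1.20-fold lower, and Fgfr3 was not called. Of the 6 tested members 5 passed, 4 higher and 1 lower, where 47.2% of 13304 genes passed (23.5% higher and 23.7% lower). The median log2 fold change of the 6 was 0.30, beside 0.02 over all genes tested.

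Fgfr2 read 525, 551 and 527 CPM in d5 Ctrl+vehicle and 768, 694 and 711 CPM in Ctrl+FGF2. All 3 FGF2 libraries were above all 3 vehicle libraries, with a log2 fold change of 0.45 ± 0.04 (adjusted p = 4.35e-08). Fgfrl1 read 33.5, 35.9 and 33.7 CPM against 67.6, 56.0 and 60.0 CPM, also without overlap, and its log2 fold change was 0.84 ± 0.07 (adjusted p = 1.64e-08). Fgfr1 read 529, 583 and 556 CPM against 484, 433 and 466 CPM, which put every FGF2 library below every vehicle library, with a log2 fold change of -0.26 ± 0.05 (adjusted p = 0.000165). Fgfr3 read 21.6, 26.0 and 23.2 CPM in Ctrl+vehicle and 27.4, 17.7 and 20.5 CPM in Ctrl+FGF2. Its groups overlapped and the change was not called (log2 fold change -0.11, 95% interval -0.38 to 0.16, adjusted p = 0.507). Without Ctrl+FGF2 replicate 1, its highest library, the value was -0.30 and was called (adjusted p = 0.0352), and without Ctrl+FGF2 replicate 2 it was 0.03 (adjusted p = 0.879).

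The changes of the adaptors at d5 were small or rested on few counts. Frs2 read 240, 272 and 263 CPM in Ctrl+vehicle and 272, 300.5 and 282 CPM in Ctrl+FGF2, which overlapped, and its log2 fold change of 0.15 ± 0.05 (adjusted p = 0.0107) lost its call without Ctrl+vehicle replicate 1 (0.10, adjusted p = 0.0557) or without Ctrl+FGF2 replicate 2 (0.11, adjusted p = 0.0599). Frs3 read 1.01, 1.08 and 1.62 CPM against 2.48, 1.47 and 2.34 CPM, from 10 to 27 counts a library. Its log2 fold change of 0.75 ± 0.28 (adjusted p = 0.0333) kept its call in 11 of 18 alternatives. The call was lost without Ctrl+vehicle replicate 1 or 2 and without Ctrl+FGF2 replicate 1 or 3, where the value was 0.61 to 0.66 (adjusted p = 0.105 to 0.126), and with DESeq2 (adjusted p = 0.169). It was also lost with unstranded counts (0.53, adjusted p = 0.162) and with only the 2 groups compared in the fit (0.74, adjusted p = 0.0567).

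**Figure D2:**
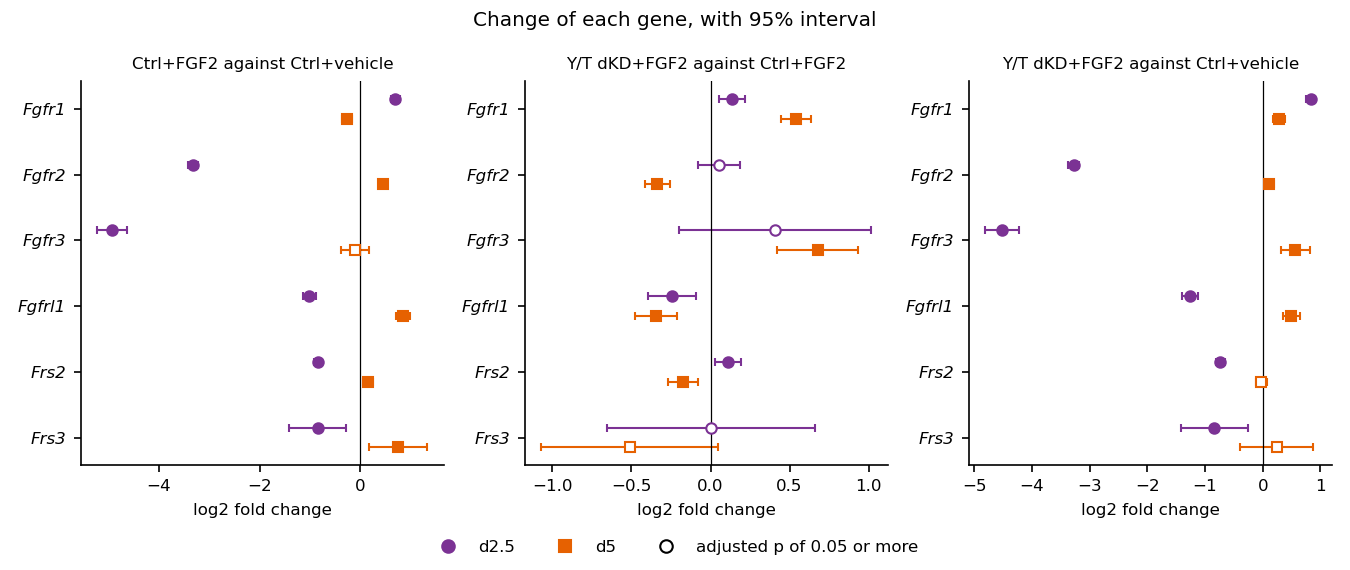
Log2 fold changes of the 6 tested genes (horizontal axes, which differ in range) in 3 comparisons, with 95% intervals; circles are d2.5, squares d5, and open symbols did not pass the test. Fgfr2 and Fgfr3 lie at -3.33 and -4.93 for FGF2 at d2.5 and at 0.45 and -0.11 at d5.

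The FGF2 effect itself differed between the days for every tested member. In a fit of all 18 libraries, the effect at d5 minus that at d2.5 passed for 6 of 6, where 60.9% of 14198 genes passed. It was higher at d5 for 5 (31.8% of all genes) and lower for 1 (29.1%), with a median difference of 1.70 beside 0.03 over all genes. This direction was not particular to the members. Of 29 other receptor tyrosine kinases tested, 17 were higher and 4 lower (median 0.58). Of 7 membrane partners of the receptors, 4 were higher and 1 lower (median 0.87), and of 8 osteoblast markers 6 and 1 (median 1.02). Fgfr3 differed by 4.79 ± 0.24 on the log2 scale (adjusted p = 2.10e-16), Fgfr2 by 3.76 ± 0.07 (adjusted p = 3.98e-27), Fgfrl1 by 1.84 ± 0.09, Frs3 by 1.57 ± 0.41 and Frs2 by 0.98 ± 0.06. Fgfr1 went the other way, by -0.98 ± 0.07 (adjusted p = 3.56e-13). The change of sign was thus seen with the call on both days for Fgfr1, Fgfr2, Fgfrl1, Frs2 and Frs3, though single libraries decided the call of Frs2 at d5 and those of Frs3 on both days, as given above. Of the osteoblast markers, 8 were tested at d5 and 5 were lower with FGF2 and 3 higher (23.7% and 23.5% of all genes). The higher ones were Spp1, Runx2 and Sp7, of which Sp7 was lower with FGF2 at d2.5. Ibsp, Alpl and Col1a1 (-0.93 ± 0.04, mean log2 CPM 14.4) had the largest falls. The 8 markers summed to 70353 to 73164 CPM in Ctrl+vehicle and 38921 to 42971 CPM in Ctrl+FGF2, a sum that weighs each marker by its level. Of the neural crest and mesenchyme markers 8 were tested, 5 higher and 2 lower at d5 (23.5% and 23.7% of all genes). They summed to 6022 to 6400 and 7452 to 7681 CPM, and the markers of other cell types to 4.42 to 5.39 and 5.33 to 7.57 CPM. The part of these markers in the differences was not tested.

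With knockdown of Yap and Taz in FGF2-treated cells at d2.5, Fgfr1 was slightly higher and Fgfrl1 slightly lower, and Fgfr2 and Fgfr3 were not called. Fgfr2 read 32.0, 28.0 and 32.1 CPM in Y/T dKD+FGF2, overlapping the Ctrl+FGF2 libraries, and Fgfr3 read 1.24, 1.09 and 1.42 CPM. Neither passed the test (Fgfr2, log2 fold change 0.05, 95% interval -0.08 to 0.19, adjusted p = 0.598; Fgfr3, 0.41, interval -0.20 to 1.02, adjusted p = 0.346). The interval of Fgfr3 allows a change of up to 1.02 on the log2 scale, so an effect of the knockdown on it was not resolved at 10 to 18 counts a library. Of the 6 tested members 3 passed, 2 higher and 1 lower, where 24.5% of all genes passed (10.8% higher and 13.6% lower). Of 7 osteoblast markers tested, 3 were higher (Ibsp, Sp7 and Spp1) and 1 lower (Col1a1, -0.14 ± 0.03), and 3 were not called. Of these, Spp1 was also higher in Ctrl+FGF2 than in Ctrl+vehicle. The 8 listed summed to 16749 to 17076 CPM in Y/T dKD+FGF2 and 14954 to 15253 CPM in Ctrl+FGF2, a sum with moves in both directions inside it. Of 8 neural crest and mesenchyme markers tested, 2 were higher and 1 lower, with sums of 7376 to 7445 and 7315 to 7395 CPM. Of 6 markers of other cell types tested, 1 was higher, with sums of 7.12 to 8.53 and 4.88 to 7.28 CPM. The part of these markers in the values was not tested.

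The called changes of the members at d2.5 were small. Fgfr1 was 1.10-fold higher, at 278, 270 and 268 CPM (log2 fold change 0.14 ± 0.04, adjusted p = 0.0120). Fgfrl1 was 1.18-fold lower, at 21.5, 20.4 and 22.3 CPM (-0.24 ± 0.07, adjusted p = 0.0151). Neither gene's libraries overlapped those of Ctrl+FGF2. Fgfr1 lost its call without Ctrl+FGF2 replicate 2 or Y/T dKD+FGF2 replicate 1 (0.12 in both, adjusted p = 0.0614 and 0.0650), and Fgfrl1 lost it without Ctrl+FGF2 replicate 1 or Y/T dKD+FGF2 replicate 2 (-0.17 and -0.21, adjusted p = 0.141 and 0.0609) and with DESeq2 (-0.24, adjusted p = 0.0570). Frs2, at 112, 103 and 111 CPM, passed narrowly (0.11 ± 0.04, adjusted p = 0.0476) and kept that call in 7 of 18 alternatives. It was lost without each library of Ctrl+FGF2, Y/T dKD+FGF2 replicate 1 or 3, or Ctrl+vehicle replicate 3, where the value was 0.09 to 0.12 (adjusted p = 0.0650 to 0.189), and with DESeq2 (adjusted p = 0.0806), among other settings. Frs3 read 1.41, 0.778 and 1.50 CPM (0.01, interval -0.65 to 0.66).

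At d5, Fgfr1 and Fgfr3 were higher and Fgfr2, Fgfrl1 and Frs2 lower in Y/T dKD+FGF2 than in Ctrl+FGF2. That is 5 of 6 tested, 2 higher and 3 lower, where 31.7% of all genes passed (15.6% higher and 16.1% lower), and the median of the 6 was -0.26 beside 0.00 over all genes. Fgfr1 read 658, 710 and 652 CPM, above every other library of either day, and its log2 fold change was 0.54 ± 0.05 (adjusted p = 7.27e-08). Fgfr3 read 31.3, 39.7 and 33.4 CPM, above all Ctrl+FGF2 libraries, with a log2 fold change of 0.68 ± 0.12 (adjusted p = 0.000335). Fgfr2 read 576, 572 and 580 CPM, below all Ctrl+FGF2 libraries, with a log2 fold change of -0.34 ± 0.04 (adjusted p = 2.53e-06).

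Fgfrl1 at d5 read 48.7, 47.4 and 48.8 CPM, also below Ctrl+FGF2, and its log2 fold change was -0.35 ± 0.06 (adjusted p = 0.000387). Frs2 read 253, 255 and 251 CPM, with a log2 fold change of -0.17 ± 0.05 (adjusted p = 0.00703). Frs3 read 1.45, 1.41 and 1.53 CPM and was not called (-0.51, interval -1.07 to 0.05, adjusted p = 0.160). All 8 osteoblast markers were higher in Y/T dKD+FGF2 than in Ctrl+FGF2 at d5 (15.6% of all genes), with a summed level of 51587 to 54274 CPM. All 8 neural crest and mesenchyme markers tested were also called, 3 higher and 5 lower (15.6% and 16.1% of all genes). The listed markers summed to 5556 to 5663 CPM against 7452 to 7681 CPM in Ctrl+FGF2. Of 3 tested markers of other cell types, 1 was called (31.7% of all genes), the macrophage marker Cd68, which went from 2.02 ± 0.62 to 4.33 ± 0.37 CPM. The part of these markers in the changes was not tested.

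The knockdown effect differed between days for 3 of the 6 members, where 20.9% of all genes passed (11.6% higher at d5 and 9.35% lower). It was higher at d5 for Fgfr1 (difference 0.40 ± 0.07, adjusted p = 5.93e-05) and lower at d5 for Fgfr2 (-0.39 ± 0.08, adjusted p = 0.000440) and Frs2 (-0.29 ± 0.06, adjusted p = 0.00143). For Fgfr3 (0.26, 95% interval -0.62 to 1.14), Fgfrl1 (-0.10, interval -0.31 to 0.10) and Frs3 (-0.52, interval -1.41 to 0.37) a difference between days was not called.

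The FGF2 and knockdown comparisons share the Ctrl+FGF2 libraries, so their values are only set side by side. At d5 the group means were 535 ± 14, 724 ± 39 and 576 ± 4 CPM for Fgfr2 in the vehicle, FGF2 and knockdown groups, in that order, and 34.4 ± 1.4, 61.2 ± 5.9 and 48.3 ± 0.8 CPM for Fgfrl1 (SD, n = 3). For both genes the knockdown group lay between the other two. For Fgfr1 the means were 556 ± 27, 461 ± 26 and 673 ± 32 CPM, which put the knockdown group above Ctrl+vehicle. The comparison of Y/T dKD+FGF2 with Ctrl+vehicle, which differ in both FGF2 and siRNA, called 6 of 6 members at d2.5 (69.8% of all genes), 1 higher and 5 lower (34.1% and 35.7%), with log2 fold changes of -3.28 ± 0.05 for Fgfr2, -4.52 ± 0.14 for Fgfr3, -1.26 ± 0.07 for Fgfrl1, -0.74 ± 0.04 for Frs2, -0.84 ± 0.28 for Frs3 and 0.83 ± 0.04 for Fgfr1. The call of Frs3 was lost without Ctrl+vehicle replicate 3 (-0.63, adjusted p = 0.0803), without Y/T dKD+FGF2 replicate 2 (-0.59, adjusted p = 0.0860) and with DESeq2 (-0.85, adjusted p = 0.0617). At d5 the same comparison called 4 of 6, all higher (41.8% of all genes, 20.7% higher and 21.1% lower). These were Fgfr3 (0.57 ± 0.12), Fgfrl1 (0.50 ± 0.07), Fgfr1 (0.28 ± 0.05) and Fgfr2 (0.11 ± 0.04, adjusted p = 0.0243). The last lost its call without Ctrl+vehicle replicate 1 or 3 or without any library of Y/T dKD+FGF2 (0.10 to 0.12, adjusted p = 0.0569 to 0.0941) and with DESeq2 (0.10, adjusted p = 0.0540). Frs2 (-0.02, interval -0.12 to 0.08) and Frs3 (0.24, interval -0.39 to 0.87) were not called.

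Over the 6 groups the members spanned unequal ranges. The highest group mean of Fgfr3 was 37.1 times its lowest, that of Fgfr2 24.7 times, that of Fgfr1 4.46 times, those of Fgfrl1 and Frs2 2.86 and 2.85 times and that of Frs3 1.81 times. Fgfr1 rose from d2.5 Ctrl+vehicle over Ctrl+FGF2 to Y/T dKD+FGF2, then d5 Ctrl+FGF2, Ctrl+vehicle and Y/T dKD+FGF2, and no neighbours in that order overlapped. The order of Fgfr2 was d2.5 Ctrl+FGF2 and Y/T dKD+FGF2, which overlapped, then d2.5 Ctrl+vehicle, d5 Ctrl+vehicle, d5 Y/T dKD+FGF2 and d5 Ctrl+FGF2 without overlap. Fgfr3 overlapped between the FGF2-treated groups of d2.5 and again between d5 Ctrl+FGF2 and Ctrl+vehicle, and was highest in d5 Y/T dKD+FGF2. Fgfrl1 had no overlapping neighbours and ran from d2.5 Y/T dKD+FGF2 to d5 Ctrl+FGF2. The 3 d5 groups of Frs2 overlapped along their order, and all neighbours of Frs3 overlapped.

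Per kilobase of exon, the leading receptor changed with the condition. In d2.5 Ctrl+vehicle the level of Fgfr2 was 28.4 ± 1.2 CPM per kilobase against 15.3 ± 1.3 for Fgfr1 and 3.98 ± 0.25 for Fgfr3. In d2.5 Ctrl+FGF2 it was 2.84 ± 0.17 against 24.9 ± 0.4 for Fgfr1 and 0.131 ± 0.037 for Fgfr3. The ratio of Fgfr2 to Fgfr1, which is taken within a library and needs no scaling between libraries, was 1.79, 1.86 and 1.95 from the lowest to the highest d2.5 Ctrl+vehicle library and 0.109, 0.114 and 0.119 in Ctrl+FGF2. Receptor transcript in vehicle cells was thus mainly Fgfr2, at 59.4% to 60.0% of the sum of Fgfr1 to Fgfr4, and in FGF2-treated cells mainly Fgfr1, at 88.8% to 89.7%. The Y/T dKD+FGF2 libraries had 89.2% to 90.5% Fgfr1.

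At d5 the ratio was 0.903 to 0.949 in Ctrl+vehicle, 1.46 to 1.53 with FGF2 (Ctrl+FGF2) and 0.771 to 0.851 in Y/T dKD+FGF2, and the 3 groups did not overlap. Fgfr2 held 46.0% to 47.3%, 57.9% to 59.2% and 41.7% to 44.3% of the sum, Fgfr1 most of the rest, and Fgfr3 2.17% to 4.18%. The sum itself was 45.9 to 50.3 CPM per kilobase in d2.5 Ctrl+vehicle, 27.2 to 28.4 with FGF2 and 30.2 to 31.4 with FGF2 and the knockdown, and at d5 it was 107 to 116, 114 to 127 and 127 to 133. In d5 Ctrl+vehicle the order of Fgfr1 and Fgfr2 depends on the length used: with the longest annotated transcript in place of all exons the ratio was 1.09. How many times the ratio of a group exceeds that of another does not depend on the length.

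**Figure D3:**
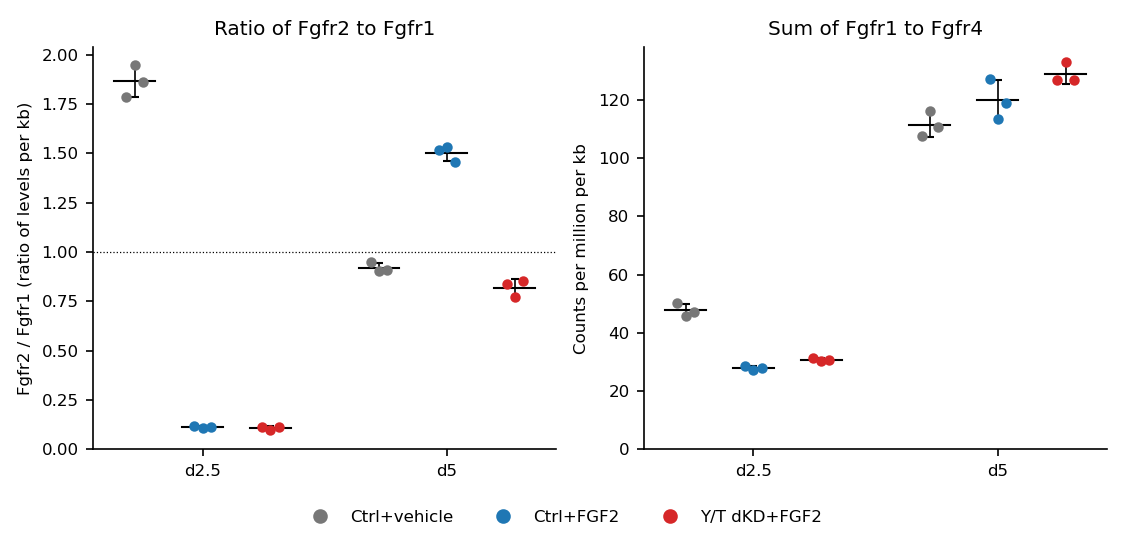
Left, ratio of the levels per kilobase of Fgfr2 to Fgfr1 in each library; right, sum of Fgfr1 to Fgfr4 in CPM per kilobase; horizontal axes give the day and colours the group, and lines and bars are mean ± SD of 3. The ratio falls from 1.79 to 1.95 in d2.5 Ctrl+vehicle to 0.109 to 0.119 in Ctrl+FGF2, and is 1.46 to 1.53 in d5 Ctrl+FGF2; the dotted line marks equal levels.

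Among all 7 members per kilobase, Frs2 ranked 2 or 3 in each group, at 20.4 CPM per kilobase in d2.5 Ctrl+vehicle, 11.4 with FGF2 and 12.4 with FGF2 and the knockdown, and 29.5, 32.6 and 29.0 in the same groups of d5. Fgfrl1 ranked 3 or 4, at 7.69 to 22.0. Frs3 stayed below 1 and Fgfr4 at or near 0. No neighbours in these orders overlapped, though with the longest transcript Fgfr1 moved from rank 4 to rank 2 in d2.5 Ctrl+vehicle.

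The signalling chain from the receptors to ERK, AKT and STATs had counts throughout, and all 32 listed genes were tested on both days. With FGF2 at d2.5, 10 were higher and 12 lower, where 33.5% and 34.1% of all genes were, with a median log2 fold change of -0.02 beside 0.00 over all genes. Pik3cb (a PI3K catalytic subunit) was higher by 0.58 ± 0.09 and Hras (a Ras GTPase) by 0.35 ± 0.06, while Stat3 (-1.09 ± 0.04), Gab1 (an adaptor next to Frs2 and Grb2, -0.94 ± 0.08) and Pik3r1 (a PI3K regulatory subunit, -0.86 ± 0.04) were lowest. At d5, 12 were higher and 9 lower (23.5% and 23.7% of all genes, median 0.05 beside 0.02), among them Mapk3 (ERK1, 0.49 ± 0.05) and Gab1 (0.47 ± 0.06), and Map2k1 (MEK1, -0.64 ± 0.07) and Crk (-0.25 ± 0.03). Of these genes, Hras and Crk were called higher at d2.5 and lower at d5, Gab1 and Mapk3 the reverse, and for 24 of the 32 the FGF2 effect differed between days (60.9% of all genes). The knockdown called 7 higher and 4 lower at d2.5 (10.8% and 13.6% of all genes), among them Cbl (a ubiquitin ligase that turns receptors over, 0.19 ± 0.05), and Mapk3 (-0.28 ± 0.04), Akt2 (-0.25 ± 0.04) and Map2k2 (-0.20 ± 0.04). At d5 it called 9 higher and 4 lower (15.6% and 16.1%), led by Cbl (0.55 ± 0.06), Gab2 (0.41 ± 0.07) and Ksr1 (a scaffold of the ERK cascade, 0.41 ± 0.08) and by Akt2 (-0.45 ± 0.04), Gab1 (-0.37 ± 0.05) and Plcg1 (-0.19 ± 0.05).

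Of 9 membrane partners of the receptors, 7 were tested. Kl, the co-receptor for Fgf23, had 0 counts in all libraries, and Klb had at most 2 counts in a group. With FGF2 at d2.5, 1 was higher and 5 lower (33.5% and 34.1% of all genes). Flrt2, a membrane protein of the family that binds FGF receptors, went from 66.8 ± 1.3 to 184 ± 3 CPM (log2 fold change 1.45 ± 0.04), opposite to its relative Flrt3 (-0.98 ± 0.09), the FGF antagonist Il17rd (Sef, -0.49 ± 0.19) and N-cadherin, Cdh2 (-0.42 ± 0.03). At d5, 3 were higher and 1 lower (23.5% and 23.7%), among them Cdh2 (0.47 ± 0.05), Il17rd (0.41 ± 0.11) and Ncam1 (-0.24 ± 0.04). The knockdown called 0 of the 7 at d2.5 by edgeR's quasi-likelihood test (0 also at an unadjusted p under the threshold, and 0 of the 6 to which DESeq2 gave an adjusted p) and 5 lower at d5 (16.1% of all genes), with Cdh2 at -0.67 ± 0.05, Il17rd at -0.32 ± 0.11 and Flrt2 at -0.25 ± 0.05. Among other receptors that use Frs2, Ntrk2, Ntrk3, Ret and Alk had at most 13 counts in a group.

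Next to the other receptor tyrosine kinases, Fgfr1 ranked among the upper ones in every group, and Fgfr2 in all but the FGF2-treated groups of d2.5. Of 54 receptor tyrosine kinases ranked by mean CPM per kilobase, Fgfr2 was the fifth in d2.5 Ctrl+vehicle and number 20 in both FGF2-treated groups, and Fgfr1 was number 10 in Ctrl+vehicle, 5 with FGF2 and 4 with FGF2 and the knockdown. The 3 highest at d2.5 were Axl, Ddr2 and Ryk, with 59.2 ± 2.2, 66.9 ± 2.4 and 44.5 ± 0.7 CPM per kilobase in Ctrl+vehicle. At d5 Axl and Pdgfrb led in all groups, and Fgfr2 was number 6, 3 and 5 and Fgfr1 number 5, 7 and 3 in the vehicle, FGF2 and knockdown groups.

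With FGF2 at d2.5, 28 of the 50 other receptor tyrosine kinases were tested, and 5 were higher and 18 lower, where 33.5% and 34.1% of all genes were, with a median log2 fold change of -0.37 beside 0.00. Among those whose mean log2 CPM was 1 or more, the largest rises were those of Epha1 (4.25 ± 0.29, from 11 counts in Ctrl+vehicle to 217 in Ctrl+FGF2 over 3 libraries each), Axl (1.18 ± 0.03) and Epha2 (0.33 ± 0.04), and the largest falls those of Ror1 (-1.81 ± 0.15), Epha4 (-1.64 ± 0.22) and Ephb3 (-1.55 ± 0.07). The falls of Fgfr2 and Fgfr3 were larger than these. At d5, 26 were tested, 12 higher and 8 lower (23.5% and 23.7% of all genes, median 0.11 beside 0.02), led by Pdgfra (0.69 ± 0.04), Ephb6 (0.57 ± 0.08) and Met (0.57 ± 0.06) and by Epha7 (-0.97 ± 0.08), Ephb2 (-0.76 ± 0.21) and Ddr2 (-0.52 ± 0.04). The knockdown called 3 higher and 8 lower of 28 at d2.5 (10.8% and 13.6% of all genes) and 5 higher and 10 lower of 26 at d5 (15.6% and 16.1%), where Egfr had the largest fall (-1.14 ± 0.12) and Ephb2 the largest rise (1.16 ± 0.20).

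**Figure D4:**
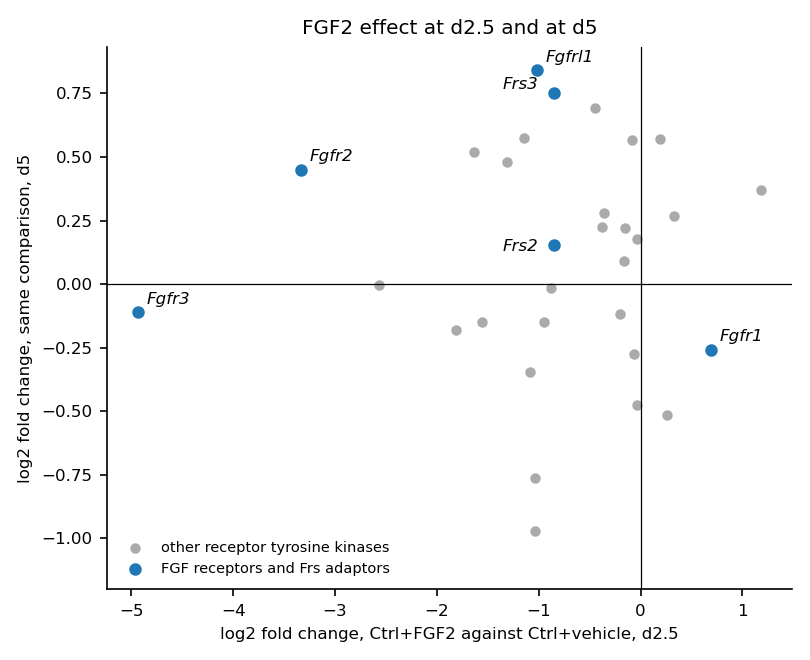
Log2 fold change of Ctrl+FGF2 against Ctrl+vehicle at d2.5 (horizontal axis) and at d5 (vertical axis) for the 6 tested genes (blue, named) and the 25 other receptor tyrosine kinases tested on both days (grey). Fgfr3 and Fgfr2 lie farthest left, at -4.93 and -3.33.

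The genes with the most similar profile over the 18 libraries, by mean absolute distance between log2 CPM values centred on each gene's mean among 11660 genes, were Nedd9 (0.127) and Sort1 (0.164) for Fgfr2, Stk17b (0.0951) and Afdn (0.147) for Fgfr1, and Tent5a (0.344) and Pth1r (0.352) for Fgfr3. For Frs2 they were Fbxl20 (0.0739) and Dirc2 (0.0746), and for Fgfrl1 Klc4 (0.124) and Nlgn2 (0.124). For scale, the members themselves deviated from their own means by 1.81 (Fgfr2), 2.02 (Fgfr3), 0.683 (Fgfr1), 0.544 (Frs2) and 0.502 (Fgfrl1) on average. All 18 libraries share the same 6 groups, so these are descriptions of this design.

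Fgfr3 shares 998 exonic bases with a gene on the opposite strand, G630022F23Rik, Frs3 shares 509 with Frs3os and 69 with Tomm6os on its own strand, Fgfr1 shares 164 with Gm16159 and Fgfr2 shares 314 with Ctbp2 on its own strand. Counts were taken by strand, and the members' counts on the other strand were 0% to 0.471% of their strand-sorted counts. Shared bases on the same strand cannot be assigned to either gene.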

How the data were processed

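Poly(A) RNA of O9-1 cells was sequenced with the SMARTER mRNA-Seq kit. Per the labels, the submitters' processing notes name FastQC, STAR, Picard, featureCounts and the build mm10, without versions. The deposited files hold the authors' raw counts for each gene in STAR's gene-count layout, and the reverse-strand column, which held 96.0% to 96.6% of the strand-sorted reads, was used. Gene counts were 10377151 to 14698525 per library, which limits the precision of genes with few counts, and reads assigned to no gene (27.0% to 34.4%) were left out. The layout counts reads that map to 1 place only. Identifiers were named from GENCODE M21 (54587 of 55335 matched with their version, 55154 without it).

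From these counts, CPM were computed with the TMM factors of the fit of 18 libraries, and divided by the kilobases of merged exons where levels of genes are compared. Each day's 9 libraries were fitted together with edgeR 4.0.16 in R 4.3.3 (TMM, filterByExpr, quasi-likelihood test), and all 18 for the differences between days. P-values were adjusted by Benjamini-Hochberg over all genes tested, with 0.05 as the threshold. Standard errors came from the F statistic and 95% intervals from the t distribution, and p-values are two-sided. The scripts were tested on simulated data, where the share of false calls was above the threshold in some comparisons, those of Y/T dKD+FGF2 with Ctrl+vehicle on both days, the knockdown at d2.5 and FGF2 at d5. Alternatives were DESeq2 1.42.0, other scalings, filters (none, or at least 10 counts in every library), a replicate block, unstranded counts, other sets of libraries in the fit, and leaving out each library.

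All 7 members and the siRNA targets are named. Of each list, at most 3 called genes with the largest rise and 3 with the largest fall at a mean log2 CPM of 1 or more are named in a comparison, and a few of these are not reported here. The 3 highest receptor tyrosine kinases per kilobase and, for members spanning at least 2-fold, the 2 nearest profiles are also named. Members and lists were chosen with earlier results of these data known. Promoter sequences are RefSeq's.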

Additional observations from a re-analysis of the deposited data

Results flagged for a closer look

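Effects that differed between d5 and d2.5 by a test of the difference itself are listed here as values (log2 scale, effect at d5 minus effect at d2.5, edgeR's quasi-likelihood test). For FGF2, Fgfr3 differed by 4.79, Fgfr2 by 3.76, Fgfrl1 by 1.84, Frs3 by 1.57, Frs2 by 0.98 and Fgfr1 by -0.98 (adjusted p from 3.98e-27 for Fgfr2 to 0.00139 for Frs3). For the knockdown of Yap and Taz, Fgfr1 differed by 0.40 (adjusted p = 5.93e-05), Fgfr2 by -0.39 (adjusted p = 0.000440) and Frs2 by -0.29 (adjusted p = 0.00143). Both tests use the Ctrl+FGF2 libraries of both days. Day and batch cannot be told apart.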

How the results depend on the processing

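Of 48 log2 fold changes of the 6 tested members, 38 were called, and 30 of these calls were kept under every alternative run. The other 8 are those given with their values in the report. The number of members called for the knockdown at d2.5 was 3, and 1 with DESeq2. Leaving out each library gave 1 to 3 there, 3 to 5 for FGF2 at d5, 5 to 6 for FGF2 at d2.5 and for the knockdown group set against Ctrl+vehicle at d2.5, and 3 to 4 for the latter at d5. Values that changed sign were called neither as reported nor under the alternative that changed it. The knockdown value of Frs3 at d2.5 was -0.026 with unstranded counts and ran from -0.17 to 0.25 over the left-out libraries, below 0 when Ctrl+FGF2 replicate 2 (-0.17) or 3 (-0.0029) or Y/T dKD+FGF2 replicate 1 (-0.10) or 3 (-0.17) was left out. Fgfr3 with FGF2 at d5 ran from -0.30 (called, as given in the report) to 0.026, the latter without Ctrl+FGF2 replicate 2, and Frs2 in the knockdown group set against Ctrl+vehicle at d5 from -0.070 to 0.0095, the latter without Ctrl+vehicle replicate 2. The ratio of Fgfr2 to Fgfr1 in d5 Ctrl+vehicle was 1.09 with the longest transcript's length, since that length divides the counts. For the others the cause was not tested.

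Deviations of same-numbered libraries from their group means correlated weakly (r of -0.063 to 0.095). Differently numbered libraries were not compared in this way and the labels do not say, so whether the numbers pair the samples was not settled. With the replicate number as a block, 6 members were called for FGF2 at d2.5 and 5 at d5, 2 for the knockdown at d2.5 (Frs2 0.11, adjusted p = 0.0624) and 5 at d5, 6 and 4 against Ctrl+vehicle, and 6 and 3 for the differences between days, and no other member call changed. Depth limits Frs3 (10 to 37 counts a library), Fgfr3 at d2.5 with FGF2 (10 to 18) and Fgfr4 (3 counts in all).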
